A study of Cucumis sativus with 12 samples.

Results

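A full day of cold was compared with no cold in leaves of sprayed cucumber (Cucumis sativus) seedlings. Every seedling had received chitosan oligosaccharide (COS), which is made of short pieces of chitosan, as a foliar spray of 50 mg/L. The unchilled group stayed for 24 h after the spray at 28 °C by day and 18 °C by night and was sampled at 0 h of cold. The chilled group had the same spray and the same 24 h of warmth and then spent 24 h at 12 °C by day and 6 °C by night. Each group had 3 RNA sequencing libraries of fully expanded leaves, and 3 libraries each of 3 h and 12 h of cold, from seedlings with the same spray, are used below only to place the 24 h values in time. The genes described are those with at least 1 FPKM in at least 3 of the 6 libraries, which are 15843 of the 24317 genes in the deposited table. FPKM is the number of fragments per kilobase of transcript and M mapped fragments (M, 10 to the power of 6), so levels of different genes can be set side by side. Because both groups carried the spray and water-sprayed seedlings were not analysed here, nothing below separates cold from spray, and the chilled leaves were also sampled a day later after the spray than the unchilled ones. The sources used here give neither the cultivar nor the clock time of sampling. They also do not say whether libraries of the same group were made from different plants. The p-values therefore rest on a spread among 3 libraries that could be technical in part.

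Cucumber is a plant of warm origin that is injured by chilling above freezing. In plants that have been studied in detail, chiefly Arabidopsis, cold slows the enzymes that use the energy of light, so that absorbed light can exceed what the leaf can use. Cold also raises DREB1 (CBF) transcription factors that bind dehydration-responsive elements, calcium and MAP kinase signals, protective sugars and chaperones, and it alters growth hormones, membrane lipids and the circadian clock. The lists of genes used here follow those functions.

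Library totals were 67.6 to 81.6 M estimated counts at 0 h and 69.8 to 77.9 M at 24 h. Across the 15843 genes, which are not independent replicates, log2 expression correlated at 0.9835 to 0.9838 between libraries of 0 h, at 0.9615 to 0.9789 between those of 24 h, and at 0.772 to 0.7816 between the groups. The 24 h libraries therefore stood further apart from each other than the 0 h libraries did. The labelled tissue was checked against markers. The RuBisCO small chain (CsaV3_5G034360), the leaf's carbon-fixing enzyme, had the highest level of all genes at 0 h, with 16100, 16400 and 15100 FPKM. The only root-type markers tested were SHORT-ROOT-like and a ROOT HAIR DEFECTIVE 3 homolog, the latter overlapping an opposite-strand gene. They summed to 4.47 to 5.23 FPKM at 0 h and 2.88 to 3.2 FPKM at 24 h. In RNA from whole leaves, fewer cells of a type and less RNA per cell cannot be told apart, and this holds for every gene below.

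With edgeR's quasi-likelihood test and a Benjamini-Hochberg adjusted p below 0.05, 11018 of the 15843 genes changed (69.5%), 5540 upward (35.0%) and 5478 downward (34.6%). At least 2-fold changes were called for 3032 genes upward (19.1%) and 2805 downward (17.7%), and 412 genes rose and 127 fell at least 16-fold. All 3 libraries of a group lay outside the range of the other group for 12004 genes (75.8%). The median log2 fold change over all tested genes was -0.01. Since about 7 in 10 genes moved, a gene list is described below by its share of rises and falls beside 35.0% and 34.6%, and a share near those says nothing particular about the list. Genes below 1 FPKM in every 0 h library were tested only through their 24 h levels and could not count as falls. The reverse holds for genes below 1 FPKM in every 24 h library. This limits the counts of every list that has such members. For every gene named as having risen or fallen, all 3 libraries of 24 h lay above or below all 3 of 0 h. The rule for naming the largest changes required this, so it is no separate support for them. Log2 fold changes are from the edgeR fit, 24 h minus 0 h, with their standard error (SE), and 12 h means are given with their SD (n = 3).

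**Figure D1:**
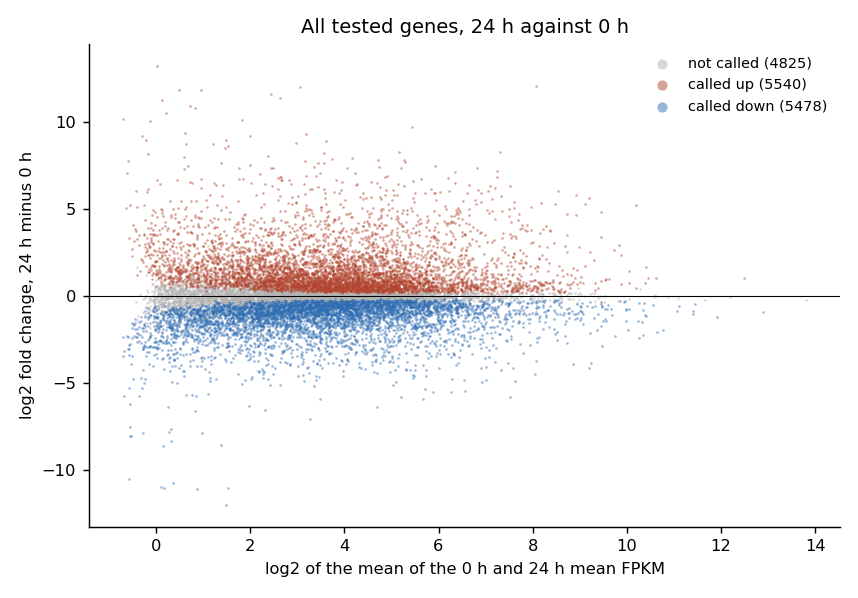
Each point is 1 of the 15843 tested genes; the horizontal axis is the log2 of the mean of the 0 h and 24 h mean FPKM and the vertical axis is the log2 fold change, 24 h minus 0 h. Red points are the 5540 genes called up, blue points the 5478 called down and grey points the 4825 not called (edgeR, adjusted p below 0.05); both colours extend over the whole range of levels.

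The step from 12 h to 24 h of cold, tested in 1 fit of all 12 libraries, called 8324 of the same genes (52.5%), 3897 upward (24.6%) and 4427 downward (27.9%). That fit shares its estimate of spread among all durations, although the 24 h libraries spread more than the others. The SEs and p-values of this step therefore borrow the smaller spread of the other groups. A fit of 12 h and 24 h only called 6914 genes. Of the genes that were higher at 24 h than at 0 h, 2592 also rose from 12 h to 24 h, 594 fell in that step and 2354 had no call in it. Of the genes that were lower at 24 h, 2736 fell further, 482 rose again and 2260 had no call. These 2 comparisons share the 24 h libraries, so each gene's values are given for each comparison and no likeness between them is read from this. Durations of 0 h and 24 h lie a whole day apart, so the 12 h leaves may come from another time of day. Where 12 h values are given below, cold duration and time of day therefore cannot be told apart.

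**Figure D2:**
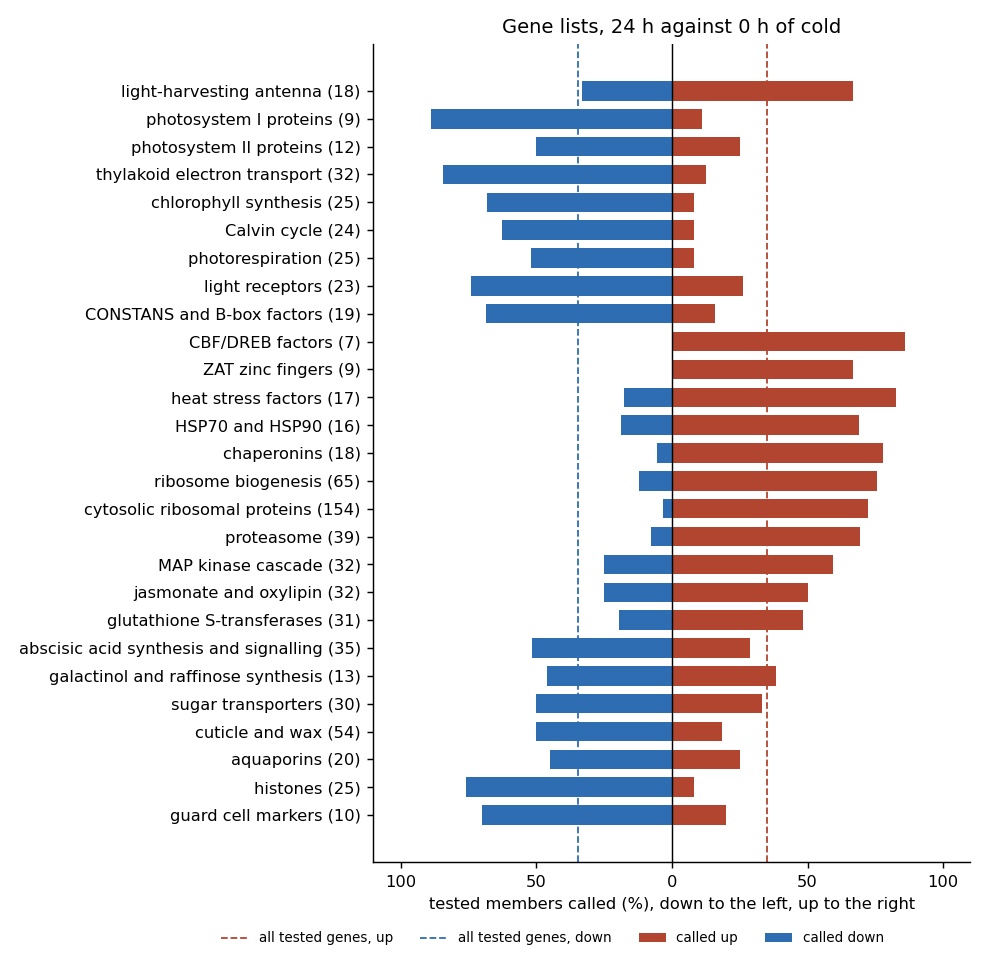
For each gene list, with its number of tested members in brackets, the bar to the right is the percentage of members called up at 24 h against 0 h and the bar to the left the percentage called down (edgeR, adjusted p below 0.05). The dashed lines mark the percentages over all tested genes, 35.0% up and 34.6% down; the bars for photosystem I, electron transport, light receptors and histones reach far to the left, and those for heat stress factors, chaperonins and cytosolic ribosomal proteins far to the right.

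Within photosynthesis, the light-collecting antenna was high after a day of cold while most of the machinery it feeds was low. The antenna proteins bind chlorophyll and pass light energy to photosystems I and II, which drive electrons along the thylakoid membrane to make the ATP and NADPH used in the Calvin cycle. Of 18 antenna genes, 12 rose and 6 fell (median log2 fold change 1.01), beside 35.0% and 34.6% of all genes. Of 9 photosystem I proteins 1 rose and 8 fell (median -0.86), and of 12 photosystem II proteins 3 rose and 6 fell (median -0.33). Of the thylakoid electron transport list, 27 of 32 members fell and 4 rose (median -0.98), or 2 rose without 0 h replicate 2. The list also holds a ferredoxin-dependent glutamate synthase, an enzyme of nitrogen assimilation, and a bilin reductase. The summed level of the antenna list was 6750 to 7090 FPKM at 0 h and 11400 to 12200 FPKM at 24 h. The sum of the electron transport list was 8980 to 9750 FPKM at 0 h and 4240 to 4610 FPKM at 24 h.

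Among the antenna genes, an LHCII type I protein (CsaV3_6G051530, chromosome 6, 29986415 to 29987212), part of the main antenna of photosystem II, stood at 234, 249 and 252 FPKM at 0 h and 1290, 1470 and 1570 FPKM at 24 h (log2 fold change 2.64, SE 0.10, adjusted p = 1.19e-06). The 24 h libraries were all more than 5-fold above the 0 h libraries, but they lay below the mean of 3580 ± 68.5 FPKM at 12 h. Its neighbour CsaV3_6G051520 carries the same name, and how reads were shared between the pair is not given. The LHCI protein 6A (CsaV3_5G025740) was at 66.7, 63.6 and 57.2 FPKM at 0 h and 209, 233 and 284 FPKM at 24 h (2.04, SE 0.12), after a mean of 871 ± 28.1 FPKM at 12 h. CP24 (CsaV3_1G019610), a small antenna protein that links the trimers to photosystem II, went the other way, from 137, 133 and 135 FPKM to 67.3, 51 and 48.6 FPKM (-1.19, SE 0.14). From 12 h to 24 h all 18 of 18 antenna genes fell (median -1.46), against 27.9% of all tested genes. The antenna medians at 24 h thus lay between those of 0 h and 12 h.

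Photosystem I subunit II (CsaV3_3G013420, chromosome 3, 10130704 to 10132104), which docks ferredoxin, was at 838, 862 and 758 FPKM at 0 h and 248, 249 and 269 FPKM at 24 h (log2 fold change -1.60, SE 0.09, adjusted p = 5.08e-06). The groups were far apart and the 24 h libraries close to each other. Subunit N (CsaV3_6G041600) fell from 1080, 1180 and 1070 FPKM to 376, 369 and 413 FPKM. The photosystem II W protein (CsaV3_2G004030), a small subunit of its reaction centre, was at 1630, 1770 and 1660 FPKM at 0 h and 446, 375 and 390 FPKM at 24 h (-1.97, SE 0.10). The rises in both lists were of photosystem core proteins that plastids usually encode: the P700 apoprotein A1 (CsaV3_UNG203680), a photosystem I core protein, rose from 2.65, 1.79 and 2.91 FPKM to 5.02, 4.47 and 6.33 FPKM, and the D1 (CsaV3_1G025480), D2 (CsaV3_4G026390) and CP47 (CsaV3_UNG207970) proteins of photosystem II rose, with log2 fold changes of 0.79, 0.79 and 0.76. The call of CP47 ended under scaling by library totals (adjusted p = 0.0537), with no filter on low values (adjusted p = 0.067) and when any library other than 24 h replicate 2 was left out (adjusted p from 0.0722 to 0.105). The deposited table places these genes on numbered chromosomes or unplaced scaffolds, and whether their reads came from plastid transcripts was not tested.

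**Figure D3:**
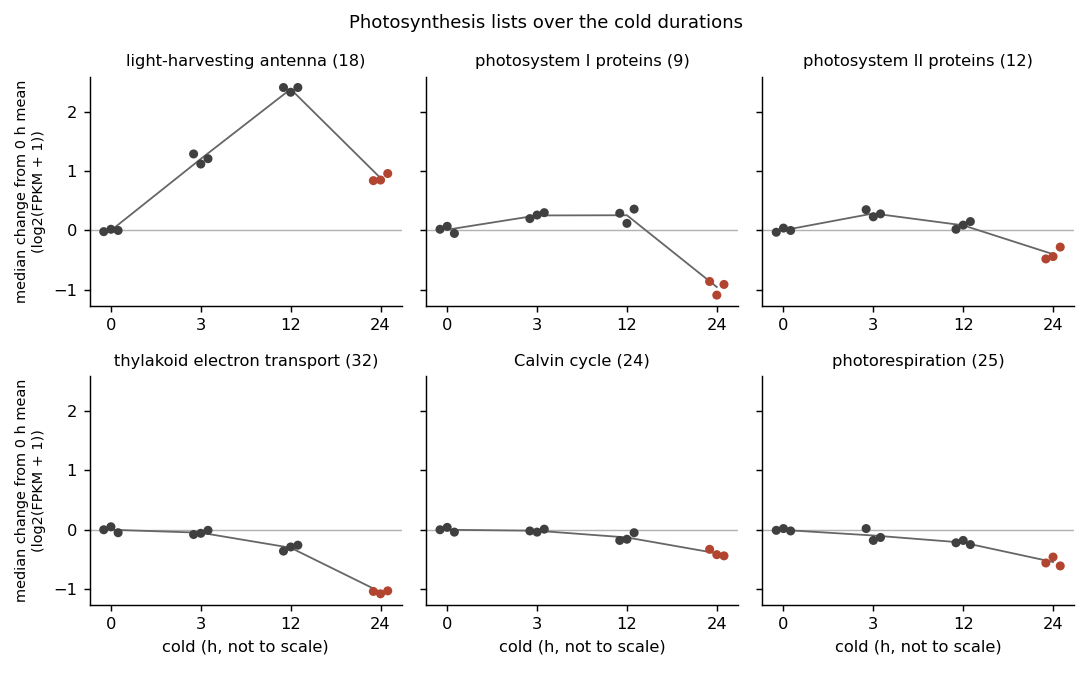
Each panel is a photosynthesis list, with its number of genes in brackets; each point is a library, placed at its cold duration (h, not to scale), and its height is the median over the list of the change in log2(FPKM + 1) from the 0 h mean, with a line through the group means. The antenna medians are 2.33 to 2.41 at 12 h and 0.84 to 0.96 at 24 h, whereas those of photosystem I lie near 0 until 12 h and at -1.09 to -0.86 at 24 h.

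In the electron transport chain, subunit S of the NADH dehydrogenase-like complex (CsaV3_4G006610, chromosome 4, 4447748 to 4449118), which runs cyclic electron flow around photosystem I, was at 102, 106 and 93.6 FPKM at 0 h and 6.06, 8.8 and 9.28 FPKM at 24 h (log2 fold change -3.56, SE 0.17, adjusted p = 3.4e-06). All 24 h libraries were more than 10-fold below the 0 h libraries. A ferredoxin-like gene (CsaV3_3G019210), whose product carries electrons from photosystem I, fell from 318, 293 and 305 to 52.6, 46.8 and 43 FPKM, and the leaf ferredoxin L-A-like gene CsaV3_3G019220 from 3630, 3910 and 3450 to 1700, 1640 and 1810 FPKM. Subunit M of the same complex (CsaV3_7G022180, overlapping an opposite-strand gene) fell by 1.86 on the log2 scale. Subunit O (CsaV3_6G041610, also overlapping an opposite-strand gene) rose instead, from 18.6, 18.5 and 16.8 to 49.4, 48.7 and 41.9 FPKM. The plastid terminal oxidase, described as ubiquinol oxidase 4 (CsaV3_1G045890), which passes surplus electrons to oxygen, was at 184, 187 and 178 FPKM at 0 h and 47.3, 42.4 and 46.6 FPKM at 24 h; it overlaps genes on both strands.

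Carbon fixation genes mostly fell or had no call. Of 24 Calvin cycle genes 15 fell and 2 rose (median -0.34). The RuBisCO small chain named above was at 14200, 12200 and 12100 FPKM at 24 h, below all 0 h libraries but without a call (log2 fold change -0.22, SE 0.10, adjusted p = 0.0932). RuBisCO activase 2 (CsaV3_5G008270, chromosome 5, 4993412 to 4996292), which frees the enzyme's active site, was at 10100, 10100 and 9970 FPKM at 0 h and 5860, 4460 and 4680 FPKM at 24 h (log2 fold change -0.92, SE 0.12, adjusted p = 0.000426). Under quantile scaling its log2 fold change was -0.00 and it was not called. Transketolase (CsaV3_3G009790), which rebuilds the acceptor of carbon dioxide, fell from 618, 652 and 624 to 163, 189 and 227 FPKM. Carbonic anhydrases supply RuBisCO with carbon dioxide. Alpha carbonic anhydrase 1 (CsaV3_3G037320) fell from 1190, 1110 and 1070 to 70.4, 55.6 and 54.4 FPKM. Carbonic anhydrase 2 (CsaV3_3G042440) fell from 3590, 3760 and 3270 to 1780, 1800 and 1990 FPKM. Neither gene's groups overlapped, and the latter was among the 10 most abundant genes at 0 h. The beta carbonic anhydrase 5-like gene CsaV3_2G030320 was at 28.8, 34.8 and 28.4 FPKM at 0 h and 74.3, 50.9 and 17.8 FPKM at 24 h and was not called (log2 fold change 0.73, SE 0.45, adjusted p = 0.186), but was called without 24 h replicate 3 at 1.12 (adjusted p = 0.0013). The mesophyll marker list, which consists of RuBisCO, its activases and carbonic anhydrases, had 4 of 8 members down and 0 up, with a summed level of 26600 to 28100 FPKM at 0 h and 16900 to 20400 FPKM at 24 h; its part in the photosynthesis lists was not tested.

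Photorespiration, the pathway that salvages the by-product RuBisCO makes with oxygen, had 13 of 25 genes down and 2 up (median -0.42), or 4 up without 24 h replicate 1. Serine-glyoxylate aminotransferase (CsaV3_1G043170), a peroxisomal step, was at 696, 694 and 684 FPKM at 0 h and 161, 125 and 111 FPKM at 24 h (log2 fold change -2.29, SE 0.15, adjusted p = 1.18e-05). Glycine dehydrogenase (CsaV3_2G025570), the mitochondrial decarboxylating step, was at 588, 610 and 564 FPKM at 0 h and 105, 121 and 137 FPKM at 24 h (-2.19, SE 0.11). Neither gene's groups overlapped, and both had fallen by 12 h, to means of 217 ± 2.27 and 304 ± 9.34 FPKM. A serine hydroxymethyltransferase 7-like gene (CsaV3_4G028640) rose, from 15.3, 15.1 and 14.6 to 60.7, 63.7 and 76.1 FPKM. The list takes this gene by its name, and whether its product acts in photorespiration was not tested. Catalase isozyme 1 (CsaV3_4G037250, chromosome 4, 26130038 to 26134144), which removes hydrogen peroxide in peroxisomes, was at 2150, 2060 and 2070 FPKM at 0 h and 322, 406 and 394 FPKM at 24 h (log2 fold change -2.40, SE 0.11, adjusted p = 2.44e-06).

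Pigment genes changed in both directions. Of 25 chlorophyll synthesis genes 17 fell and 2 rose (median -0.31). Without 0 h replicate 2 the number that fell was 11, and without 24 h replicate 1 the number that rose was 4. Glutamyl-tRNA reductase 1 (CsaV3_2G030530), the committed step, was at 188, 194 and 191 FPKM at 0 h and 79.7, 80 and 84.2 FPKM at 24 h (-1.15, SE 0.07), and chlorophyllide a oxygenase (CsaV3_6G034450, overlapping an opposite-strand gene), which makes chlorophyll b, fell from 85.8, 87 and 85 to 28.8, 24.4 and 23.7 FPKM. Protochlorophyllide reductase (CsaV3_4G033870, chromosome 4, 23990373 to 23992959), the light-driven step, rose from 38.2, 42 and 43.6 to 170, 155 and 184 FPKM (log2 fold change 2.13, SE 0.10, adjusted p = 2.69e-06). Of 14 chlorophyll breakdown genes 6 fell and 3 rose. The chlorophyll b reductase NYC1 (CsaV3_1G024260) rose from 30.4, 28.6 and 27.5 to 215, 197 and 195 FPKM. A chlorophyllase-1-like gene (CsaV3_2G013640) rose from 0.792, 0.902 and 0.374 to 13.5, 11.4 and 13.1 FPKM, while STAY-GREEN LIKE (CsaV3_6G031220), of the family that removes magnesium, fell from 119, 124 and 123 to 14.8, 16.6 and 16.1 FPKM. Of 31 carotenoid genes 15 fell and 9 rose. The entry enzyme phytoene synthase (CsaV3_5G020340) was at 316, 324 and 308 FPKM at 0 h and 52.3, 51.2 and 58.2 FPKM at 24 h. Phytoene desaturase (CsaV3_3G040590), the next step, was at 22.3, 22.3 and 21.2 FPKM at 0 h and 1.59, 1.06 and 0.888 FPKM at 24 h. The log2 fold changes of the pair were -2.46 (SE 0.08) and -4.12 (SE 0.23).

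Light receptors and their signalling partners were mostly lower. Phytochromes sense red light, cryptochromes and phototropins blue light, and all 23 genes of the list had a call, 17 of them down and 6 up (median -1.09). A PHYTOCHROME KINASE SUBSTRATE 1-like gene (CsaV3_2G010730), known in Arabidopsis for phototropism, was at 10.4, 11.7 and 8.38 FPKM at 0 h and 0.217, 0.284 and 0.537 FPKM at 24 h (log2 fold change -4.78, SE 0.34, adjusted p = 2.16e-05). The phytochrome A-associated F-box protein (CsaV3_4G000750) fell from 45.5, 40.2 and 40.9 to 7.68, 4.86 and 6.55 FPKM. HY5 (CsaV3_3G046530, chromosome 3, 37990588 to 37993526), the factor that promotes greening in light, rose from 1.62, 2.13 and 2.07 to 8.64, 9.13 and 16.1 FPKM (log2 fold change 2.62, SE 0.28, adjusted p = 0.000131), and COP1-like (CsaV3_1G045940), a ligase whose Arabidopsis relative tags HY5 for breakdown, rose from 25.3, 25.5 and 25.8 to 37.6, 47.5 and 55.1 FPKM. The 24 h libraries of HY5 did not overlap those of 0 h, and library 3 was the highest.

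CONSTANS-LIKE and B-box zinc fingers, which act in day length and light responses, had 13 of 19 members down and 3 up (median -0.94). CONSTANS-LIKE 6 (CsaV3_5G026860, chromosome 5, 21937871 to 21941313) was at 21, 24.4 and 20.8 FPKM at 0 h and 0.415, 0.357 and 0.22 FPKM at 24 h (log2 fold change -5.94, SE 0.24, adjusted p = 1.68e-06). Under the rule for named genes it was among the 10 largest falls of the genes with an informative description, of which 10740 were tested. B-box protein 20 (CsaV3_7G000270) rose from 1.58, 1.86 and 1.27 to 22.8, 36.5 and 43.6 FPKM. CONSTANS-LIKE 14-like (CsaV3_4G002870) rose from 5.06, 3.73 and 4.13 to 39.4, 48.7 and 54.3 FPKM. From 12 h to 24 h the former rose by 3.01 on the log2 scale (SE 0.21) and the latter had a log2 change of -0.54 (SE 0.14).

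The clock list had 10 of 19 genes up and 4 down, or 7 down under quantile scaling. The morning gene LHY-like (CsaV3_6G008360), which overlaps a gene on the same strand, was at 570, 534 and 562 FPKM at 0 h and 164, 138 and 123 FPKM at 24 h (-1.88, SE 0.13). The pseudo-response regulator APRR7 (CsaV3_4G024430, chromosome 4, 14305828 to 14313182), which represses LHY in Arabidopsis, was at 6.06, 5.88 and 5.49 FPKM at 0 h and 130, 184 and 190 FPKM at 24 h (log2 fold change 4.94, SE 0.17, adjusted p = 9.17e-07). At 12 h its mean was 175 ± 1.58 FPKM, and the step from 12 h to 24 h was not called (-0.07, SE 0.12).

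Transcription factors of the cold response were higher. Of 7 CBF/DREB factors tested, out of 12 matched by description, 6 rose and 0 fell (median 3.57), beside 35.0% and 34.6% of all genes. Members below 1 FPKM in every 0 h library, such as DREB 1B-like, were tested only through their 24 h levels and could not count as falls. DREB 1B-like (CsaV3_5G005890, chromosome 5, 3899628 to 3900230) was at 0.505, 0.554 and 0.0938 FPKM at 0 h and 20.2, 16.4 and 9.43 FPKM at 24 h (log2 fold change 5.38, SE 0.60, adjusted p = 0.000187). At 12 h its mean was 0.521 ± 0.294 FPKM, and most of the rise lay between 12 h and 24 h (4.83, SE 0.60, adjusted p = 4.62e-05 for that step). DREB 1A (CsaV3_3G016760) was at 1.57, 1.11 and 1.83 FPKM at 0 h and 12.1, 17.3 and 9.59 FPKM at 24 h, after a mean of 2.95 ± 1.22 FPKM at 12 h. A pair of DREB 2A-like genes, of the dehydration branch, already had raised levels at 12 h. The first, CsaV3_4G026910, was at 3.92, 4.42 and 3.95 FPKM at 0 h and 48.9, 44.6 and 44.5 FPKM at 24 h with a 12 h mean of 30.7 ± 0.333 FPKM. The other, CsaV3_4G026790, which overlaps an opposite-strand gene, was at 2.25, 2.9 and 2.58 FPKM at 0 h and 43.4, 37.1 and 38.9 FPKM at 24 h with a 12 h mean of 23.6 ± 1.6 FPKM. DREB 2C (CsaV3_6G002010) rose from 5.66, 5.67 and 4.81 to 30, 23.9 and 23.6 FPKM and was lower at 24 h than at 12 h (-0.30, SE 0.10).

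Genes whose names refer to cold or dehydration did not move as a block: 10 of 26 rose and 11 fell, and without 24 h replicate 3 rises became the more frequent. EARLY RESPONSIVE TO DEHYDRATION 15-like (CsaV3_4G022030) was at 5.14, 6.58 and 4.72 FPKM at 0 h and 83.5, 103 and 71.5 FPKM at 24 h (4.06, SE 0.20). DEHYDRATION-INDUCED 19 homolog 5-like (CsaV3_1G008860, overlapping an opposite-strand gene) fell from 25.9, 25.7 and 28.7 to 4.84, 4.63 and 6.21 FPKM. Homolog 4 (CsaV3_6G050350) fell from 125, 113 and 120 to 31.2, 30.4 and 24.1 FPKM. A late embryogenesis abundant protein, Lea5-A-like (CsaV3_4G000870), of a family that shields proteins from drying, was at 0, 2.36 and 2.04 FPKM at 0 h and 52.2, 48.4 and 40.7 FPKM at 24 h; the first 0 h library had no count.

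ZAT zinc fingers, repressors that rise with many stresses, had 6 of 9 tested genes up and 0 down (median 3.09), out of 17 matched by description. Here too a member below 1 FPKM in every 0 h library could not count as a fall. ZAT10-like (CsaV3_2G026210, chromosome 2, 17985660 to 17986382) was at 10.8, 12.2 and 11.1 FPKM at 0 h and 320, 371 and 353 FPKM at 24 h (log2 fold change 5.02, SE 0.10, adjusted p = 4.8e-07). ZAT10 (CsaV3_4G034970) was at 59.4, 54.6 and 56.8 FPKM at 0 h and 501, 434 and 432 FPKM at 24 h. Of 62 ethylene-responsive factors 35 rose and 14 fell, of 33 NAC factors 17 and 4, of 39 WRKY factors 20 and 13, of 43 MYB factors 16 and 16, and of 60 bHLH factors 13 and 22. These lists matched 114, 53, 52, 79 and 93 genes by description, and the same limit on falls applies to them. NAC 2 (CsaV3_2G019740, chromosome 2, 15743315 to 15744605), a stress regulator, was at 30.8, 32.7 and 34.2 FPKM at 0 h and 733, 870 and 855 FPKM at 24 h (log2 fold change 4.74, SE 0.11, adjusted p = 5.31e-07). NAC 8-like (CsaV3_6G050450) was at 0.485, 0.0914 and 0.156 FPKM at 0 h and 84.5, 84.3 and 43.8 FPKM at 24 h. Without 0 h replicate 1 its log2 fold change was 9.16 in place of 8.28. Probable WRKY 46 (CsaV3_3G008170) rose from 12.3, 17 and 14.7 to 394, 491 and 574 FPKM. WRKY 75 (CsaV3_4G003030), of the same family of defence and senescence regulators, rose from 0.563, 0.649 and 0.728 to 30.7, 23 and 18 FPKM. A Myb4-like gene (CsaV3_3G022290), a relative of repressors of phenolic synthesis, rose from 0.142, 0.205 and 0.162 to 16.1, 29.7 and 21 FPKM.

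Other regulators fell. MYB1R1 (CsaV3_1G008110) was at 205, 214 and 225 FPKM at 0 h and 38.8, 29.4 and 29.5 FPKM at 24 h. WRKY 27 (CsaV3_4G001260) was at 24.3, 19.4 and 20.5 FPKM at 0 h and 3.75, 2.52 and 2.74 FPKM at 24 h. A bHLH118-like factor (CsaV3_5G003410) was at 9.37, 10.3 and 9.65 FPKM at 0 h and 0, 0.0941 and 0.192 FPKM at 24 h (-6.55, SE 0.68). Without 24 h replicate 1 its log2 fold change was -5.95, and without 24 h replicate 3 it was -7.51. High mobility group B protein 9 (CsaV3_4G037000), a DNA-bending protein, was at 23.2, 17.2 and 17.6 FPKM at 0 h and 0.262, 0 and 0.141 FPKM at 24 h; its log2 fold change of -7.04 was -8.02 without 24 h replicate 1.

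Chaperones were among the groups that rose. Of 17 heat stress factors, which switch on chaperone genes, 14 rose and 3 fell (median 2.17). Factor B-2b-like (CsaV3_3G016950, chromosome 3, 12743761 to 12744742) was at 8.88, 9.65 and 11.9 FPKM at 0 h and 231, 265 and 275 FPKM at 24 h (log2 fold change 4.75, SE 0.14, adjusted p = 7.82e-07). Factor C-1 (CsaV3_2G002270, chromosome 2, 893155 to 894524) moved the other way and was at 507, 524 and 484 FPKM at 0 h and 35.1, 16.6 and 11.2 FPKM at 24 h (log2 fold change -4.50, SE 0.44, adjusted p = 9.62e-05). Without 24 h replicate 1 its log2 fold change was -5.10. Before the cold it made up most of the list's summed level, 640 to 672 FPKM at 0 h, and the sum at 24 h was 541 to 614 FPKM.

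Of 16 HSP70 and HSP90 genes 11 rose and 3 fell (median 1.68), and the list's summed level went from 378 to 448 FPKM at 0 h to 3830 to 5370 FPKM at 24 h. An HSP70 gene (CsaV3_4G024840, chromosome 4, 14570618 to 14574300) was at 74.1, 58.9 and 61.6 FPKM at 0 h and 2110, 2160 and 2560 FPKM at 24 h (log2 fold change 5.22, SE 0.14, adjusted p = 5.97e-07) and was among the 10 most abundant genes of the 24 h leaves. The HSP90-type heat shock cognate protein 80 (CsaV3_1G038710) was at 53.6, 41.7 and 44.2 FPKM at 0 h and 449, 587 and 798 FPKM at 24 h. Its neighbour CsaV3_1G038690, described as heat shock cognate 80-like, was at 29.6, 25.8 and 22.7 FPKM at 0 h and 319, 395 and 528 FPKM at 24 h, and reads may be shared between such close copies. Small heat shock proteins did not share a direction, with 8 of 20 up and 6 down. The 17.3 kDa class I gene CsaV3_1G035830 rose from 8.85, 11.4 and 5.76 to 162, 200 and 394 FPKM, with library 3 highest.

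Chaperonins, barrel-shaped folding machines of plastids and mitochondria, had 14 of 18 genes up and 1 down (median 0.79). The RuBisCO large subunit-binding proteins alpha (CsaV3_6G014140) and beta (CsaV3_1G041580), which assemble RuBisCO, were at 77.5, 82.9 and 74.3 FPKM at 0 h and 235, 277 and 358 FPKM at 24 h (alpha) and at 128, 127 and 113 FPKM at 0 h and 402, 498 and 608 FPKM at 24 h (beta). Mitochondrial CPN60-2 (CsaV3_2G012300) rose from 37.5, 35.9 and 35.2 to 106, 131 and 165 FPKM. The chaperonin for RuBisCO rose in the same leaves in which the RuBisCO small chain had no call.

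Genes for making ribosomes rose broadly and by modest amounts. Of 154 cytosolic ribosomal proteins 111 rose and 5 fell (median 0.44), with summed levels of 23100 to 24400 FPKM at 0 h and 29700 to 31400 FPKM at 24 h. The number that fell was 3 without 0 h replicate 2 or 24 h replicate 2 and 9 without 24 h replicate 1. Of 65 ribosome biogenesis genes 49 rose and 8 fell (median 0.72), and of 51 translation factors 27 and 10. The number of ribosome biogenesis genes that fell was 2 to 5 when any library other than 24 h replicate 1 was left out, and that of translation factors was 17 under quantile scaling. Nucleolin 1 (CsaV3_3G031420), which processes ribosomal RNA, was at 75.4, 65.7 and 70 FPKM at 0 h and 244, 335 and 364 FPKM at 24 h (log2 fold change 2.25, SE 0.15, adjusted p = 1.37e-05). Initiation factor 6-2 (CsaV3_2G019580), which takes part in maturing the large subunit, rose from 60.4, 52.4 and 69.6 to 225, 323 and 339 FPKM. NAF1 (CsaV3_2G036510, overlapping an opposite-strand gene), which assembles RNA-modifying particles, rose from 5.77, 4.21 and 3.97 to 20, 24.6 and 24.6 FPKM. Plastid and mitochondrial ribosomal proteins had 25 of 69 genes up and 12 down, and 33 of them fell from 12 h to 24 h.

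RNA helicases and cold-type RNA-binding proteins, which loosen RNA structure, were also higher: 31 of 55 DEAD-box helicases rose and 12 fell. RNA-binding proteins of the cold type had 7 of 10 members up and 1 down (median 1.40). The plastid helicase 3 (CsaV3_1G038160, overlapping an opposite-strand gene) was at 55.7, 60.4 and 52.5 FPKM at 0 h and 388, 447 and 487 FPKM at 24 h (3.06, SE 0.11). Proteasome subunits, which break proteins down, had 27 of 39 genes up and 3 down (median 0.37), and a polyubiquitin-like gene (CsaV3_1G011030, overlapping an opposite-strand gene) rose from 313, 364 and 291 to 1170, 1560 and 1920 FPKM. Histones moved the other way, with 19 of 25 down and 2 up (median -0.59). Histone H1 (CsaV3_6G046960), the linker between nucleosomes, was at 134, 146 and 147 FPKM at 0 h and 12.9, 9.11 and 13 FPKM at 24 h (log2 fold change -3.52, SE 0.16, adjusted p = 2.48e-06), and histone H2A.5 (CsaV3_2G006590) at 42.7, 60.8 and 37 FPKM at 0 h and 4.38, 3.99 and 3.99 FPKM at 24 h. DNA replication genes had 13 of 35 down and 5 up.

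Hormone genes changed within each pathway in both directions, often with different members of a family on opposite sides. Abscisic acid, the hormone of drought and of closing stomata, binds PYR/PYL receptors, which then release SRK2 kinases. Of 35 genes of its synthesis and signalling 18 fell and 10 rose (median -0.37). The receptor PYL8 (CsaV3_7G025250, chromosome 7, 14609356 to 14611908) was at 225, 242 and 254 FPKM at 0 h and 56.3, 53.3 and 53 FPKM at 24 h (log2 fold change -2.06, SE 0.08, adjusted p = 1.74e-06). A PYL4-like receptor (CsaV3_4G026530, chromosome 4, 15776156 to 15778129) was at 0.663, 0.442 and 0.467 FPKM at 0 h and 31.1, 49.2 and 60.5 FPKM at 24 h (log2 fold change 6.55, SE 0.32, adjusted p = 4.24e-06). Its 12 h mean was 1.25 ± 0.217 FPKM, closer to the 0 h libraries than to those of 24 h. A further PYL4 gene (CsaV3_6G001990) was at 0, 0.0829 and 0 FPKM at 0 h and 11.3, 22.6 and 21.1 FPKM at 24 h; its 0 h fragments were too few for a fold change.

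Enzymes that cut carotenoids to begin abscisic acid synthesis rose. NCED3-like (CsaV3_4G007760) was at 2.04, 2.19 and 2.45 FPKM at 0 h and 9.95, 8.04 and 7.33 FPKM at 24 h. NCED5 (CsaV3_1G032340) was at 0.117, 0 and 0.131 FPKM at 0 h and 14.7, 13.8 and 25 FPKM at 24 h. NCED3-like had been higher at 12 h, with a mean of 24.3 ± 3.4 FPKM. Downstream, the kinase SRK2E-like (CsaV3_2G014200) fell from 5.81, 6.49 and 5.6 to 0.929, 1.33 and 0.988 FPKM. ABSCISIC ACID-INSENSITIVE 5 (CsaV3_3G037220), a factor of the hormone's target genes, fell from 8.63, 7.93 and 10.7 to 1.57, 1.6 and 2.18 FPKM.

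Gibberellin promotes growth and DELLA proteins hold it back. Of 21 gibberellin genes 11 fell and 7 rose. The DELLA gene GAI (CsaV3_1G031060, chromosome 1, 18212758 to 18215379) was at 6.1, 5.86 and 5.61 FPKM at 0 h and 0.576, 0.58 and 0.39 FPKM at 24 h (-3.41, SE 0.20). The DELLA gene RGL2 (CsaV3_7G029990, chromosome 7, 18972229 to 18974540) was at 0.707, 0.96 and 0.566 FPKM at 0 h and 23.7, 20.3 and 13.1 FPKM at 24 h (4.77, SE 0.31). Gibberellin 20 oxidase 2-like (CsaV3_6G041260, overlapping an opposite-strand gene), a synthesis step, rose from 1.27, 1.34 and 1.46 to 6.11, 8.59 and 10.5 FPKM. Gibberellin 2-beta-dioxygenase 8 (CsaV3_1G011060), of an inactivating step, also rose, from 4.14, 3.81 and 4.03 to 6.62, 13.8 and 26.2 FPKM. Of 8 auxin carriers 4 fell and 2 rose, of which 1 was called upward without 0 h replicate 1, 0 h replicate 2 or 24 h replicate 2. Auxin transporter-like 4 (CsaV3_4G026200) fell from 8.96, 8.38 and 11.4 to 1.18, 1.12 and 1.33 FPKM, and auxin transporter-like 1 (CsaV3_6G001710) fell from 5.09, 3.25 and 8 to 0.212, 0.938 and 0.907 FPKM. An auxin efflux carrier component 1-like gene (CsaV3_1G007160) rose from 1.07, 0.675 and 1.31 to 1.85, 2.43 and 2.1 FPKM. The auxin-induced protein ARG2 (CsaV3_7G029330), one of the 10 most abundant genes in both groups, rose from 3880, 3810 and 4190 to 7340, 7710 and 7580 FPKM (log2 fold change 1.02, SE 0.08, adjusted p = 3e-05). Its 12 h mean was 3790 ± 66.4 FPKM. LOG enzymes, which free active cytokinin, split: CsaV3_4G035760 rose from 34.2, 19.3 and 21.7 to 204, 180 and 151 FPKM and CsaV3_7G030990 fell from 35.8, 34.1 and 33 to 2.72, 4.39 and 3.23 FPKM.

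Jasmonate, a hormone of wounding and stress made from membrane fatty acids, had 16 of 32 genes up and 8 down (median 0.58). The 13-lipoxygenase 3-1 (CsaV3_7G034390), its entry enzyme, was at 1.9, 3.19 and 2.43 FPKM at 0 h and 58.3, 55.1 and 42.1 FPKM at 24 h (log2 fold change 4.46, SE 0.24, adjusted p = 6.48e-06). TIFY repressors, which jasmonate itself induces in Arabidopsis, changed in both directions. TIFY 11A (CsaV3_3G030830) was at 7.68, 7.73 and 8.6 FPKM at 0 h and 176, 209 and 191 FPKM at 24 h. TIFY 5A-like (CsaV3_1G032370) was at 0.0395, 0.256 and 0.0818 FPKM at 0 h and 10.8, 14 and 12.5 FPKM at 24 h. Without 0 h replicate 2 the log2 fold change of TIFY 5A-like was 7.62 in place of 6.65. A TIFY 8-like gene (CsaV3_2G031660) fell from 29.8, 29.1 and 30 to 11.9, 11.5 and 12.4 FPKM. For ethylene, ACC oxidase 1-like (CsaV3_6G037780, chromosome 6, 21385829 to 21388097), the last step of synthesis, was at 16.8, 19 and 18.5 FPKM at 0 h and 1060, 934 and 833 FPKM at 24 h (log2 fold change 5.79, SE 0.14, adjusted p = 5.33e-07), and from 12 h to 24 h it rose by 3.03 (SE 0.12). The ethylene list as a whole had 8 of 28 up and 12 down. It includes genes described as ACC oxidase homologs, such as those on chromosome 3 named below, and that name does not show that they make ethylene.

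**Figure D4:**
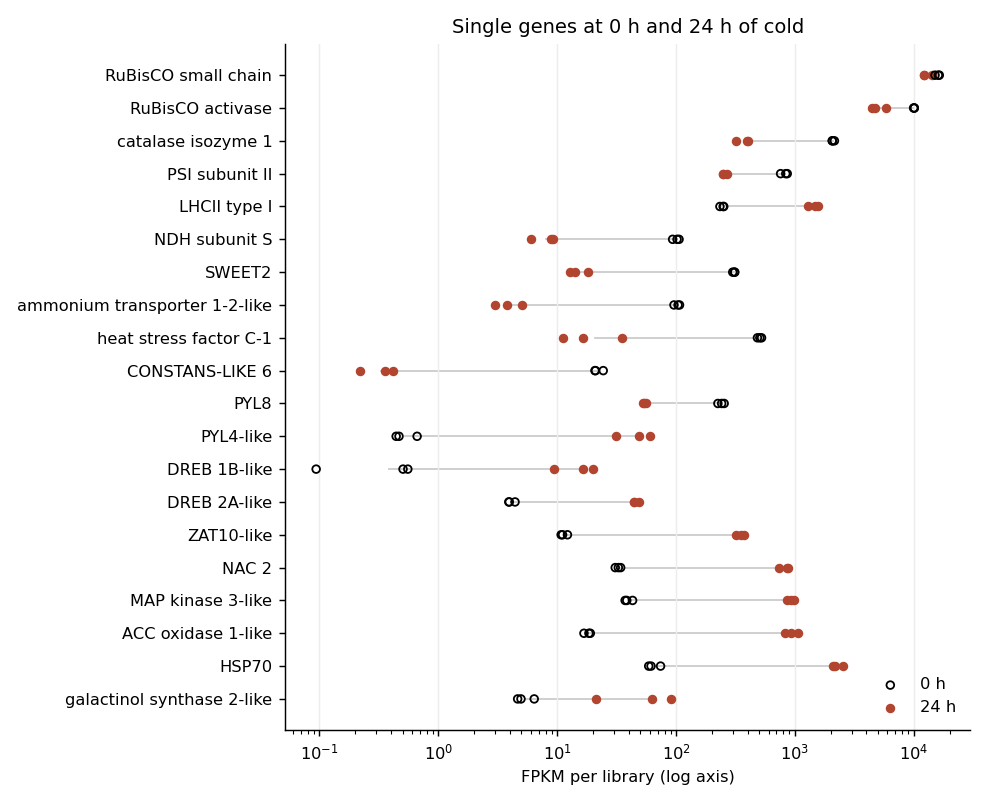
FPKM of 20 named genes in each of the 3 libraries of 0 h (open circles) and 24 h (filled red circles), on a log axis, with a grey line between the group means. ACC oxidase 1-like, MAP kinase 3-like, NAC 2 and ZAT10-like rose without any overlap, and the ammonium transporter 1-2-like gene, SWEET2, heat stress factor C-1 and CONSTANS-LIKE 6 fell without any overlap. The rule for naming the largest changes required that the groups did not overlap.

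Sugar genes changed in both directions. Raffinose-family sugars, made from galactinol and sucrose, protect membranes. Of 13 genes listed for them and for inositol, 5 rose and 6 fell. The largest rise of the list, 3.91 on the log2 scale, was of an inositol oxygenase, which breaks inositol down and is no step of raffinose synthesis. Galactinol synthase 2-like (CsaV3_1G015730, chromosome 1, 11288337 to 11290272), the committed step, was at 4.65, 6.41 and 4.96 FPKM at 0 h and 90, 63.1 and 21.3 FPKM at 24 h (log2 fold change 3.54, SE 0.51, adjusted p = 0.000682). Library 3 of 24 h was the lowest of the 3 and still above every 0 h library. Galactinol synthase 1-like (CsaV3_5G031520) was at 0.83, 0.263 and 0.331 FPKM at 0 h and 2.84, 3.08 and 11.9 FPKM at 24 h, with library 3 highest; its log2 fold change of 3.72 was 2.73 without 24 h replicate 3 and 4.36 without 0 h replicate 1. Inositol-3-phosphate synthase-like genes, which supply the inositol, fell from the highest levels of the list. Of the pair CsaV3_4G004810 was at 2710, 2710 and 2360 FPKM at 0 h and 718, 553 and 469 FPKM at 24 h and CsaV3_UNG190490 at 2910, 2980 and 2570 FPKM at 0 h and 850, 639 and 553 FPKM at 24 h. The pair are similar in name and level, so reads may be shared between them. A probable galactinol-sucrose galactosyltransferase 2 (CsaV3_1G000950), which makes raffinose, fell from 30.5, 30.7 and 34.5 to 5.94, 4.92 and 5.58 FPKM.

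Sucrose-phosphate synthase 2 (CsaV3_2G011150), of sucrose synthesis, was at 162, 169 and 165 FPKM at 0 h and 40.9, 36.5 and 34.9 FPKM at 24 h (log2 fold change -2.05, SE 0.09, adjusted p = 2.74e-06). In contrast, alkaline/neutral invertase A (CsaV3_3G015320), which splits sucrose, was at 5.84, 6.07 and 5.7 FPKM at 0 h and 109, 93.3 and 45.1 FPKM at 24 h (3.91, SE 0.33). Of 13 trehalose genes 5 rose and 5 fell. Probable trehalose-phosphate synthases CsaV3_1G001640 (described as number 10) and CsaV3_5G031700 rose from 6.62, 7.94 and 7.74 to 45.9, 46 and 22.7 FPKM and from 16, 17.6 and 17.9 to 117, 96.5 and 56.6 FPKM. Their names refer to the enzyme that makes a sugar signal, and whether these members make it was not tested. Of the phosphatases that remove the signal, J (CsaV3_4G004750) fell from 62.3, 63.2 and 54.2 to 14.7, 9.22 and 8.87 FPKM and A (CsaV3_3G016150) rose from 60.6, 67.4 and 65.1 to 185, 249 and 238 FPKM. Of 23 starch breakdown genes 7 rose and 8 fell. Beta-amylase 3 (CsaV3_3G002150) rose from 78.2, 70.7 and 61.5 to 105, 140 and 130 FPKM. The phosphatase LSF1 (CsaV3_3G042460), which assists starch release in Arabidopsis, rose from 1.46, 1.81 and 1.79 to 14, 18.3 and 21.4 FPKM. Beta-amylase 1 (CsaV3_2G012230) fell from 15.6, 17.7 and 17.6 to 4.92, 2.32 and 1.49 FPKM, with a log2 fold change of -2.44 that was -3.07 without 24 h replicate 1. The inactive beta-amylase 9 (CsaV3_6G005730) fell from 416, 387 and 407 to 48.3, 40.1 and 29.3 FPKM.

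Sugar transporters were lower in sum, 1330 to 1390 FPKM at 0 h and 333 to 364 FPKM at 24 h, with 15 of 30 down and 10 up (median -0.64). SWEET2 (CsaV3_4G032810, overlapping an opposite-strand gene), a sugar carrier of the vacuole in Arabidopsis, was at 312, 300 and 310 FPKM at 0 h and 14.2, 18.2 and 12.9 FPKM at 24 h (log2 fold change -4.26, SE 0.15, adjusted p = 1.02e-06). Polyol transporter 5-like (CsaV3_2G014540) was at 354, 343 and 311 FPKM at 0 h and 16.2, 18.9 and 30.3 FPKM at 24 h. These genes held much of the list's level at 0 h. SWEET17 (CsaV3_3G014800), a fructose carrier in Arabidopsis, rose from 1.73, 2.79 and 2.27 to 14.4, 27.9 and 39.4 FPKM, below its 12 h mean of 59.1 ± 1.41 FPKM, and sugar transport protein 13-like (CsaV3_6G038210), which takes up hexoses, rose from 1.67, 1.71 and 2.29 to 78.4, 47 and 34 FPKM.

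Water channels were lower more often than higher, including abundant members. Of 20 aquaporins, which let water through membranes, 9 fell and 5 rose (median -0.52), and from 12 h to 24 h 11 fell and 0 rose. The plasma membrane aquaporin PIP2-7-like (CsaV3_7G001080) was at 37.4, 37.3 and 47.3 FPKM at 0 h and 13.5, 9.75 and 7.75 FPKM at 24 h. The vacuolar TIP4-1 (CsaV3_2G030920) was at 47.5, 51.6 and 85.1 FPKM at 0 h and 7.08, 10.2 and 13 FPKM at 24 h. PIP1-4-like (CsaV3_5G008940), chosen after its values were seen because of its level, fell from a mean of 1510 ± 60.4 to 518 ± 90.4 FPKM (SD, n = 3 each). Vacuolar TIP1-1 (CsaV3_6G040100, chromosome 6, 23064934 to 23066843), the member with the highest 24 h level, was at 579, 570 and 622 FPKM at 0 h and 1800, 1610 and 1160 FPKM at 24 h (log2 fold change 1.46, SE 0.17, adjusted p = 0.000197). TIP2-2 (CsaV3_5G004290) was at 13.4, 22.3 and 17.7 FPKM at 0 h and 105, 55.2 and 22.6 FPKM at 24 h (log2 fold change 1.87, SE 0.52, adjusted p = 0.0145). Leaving out 0 h replicate 1 ended the call (adjusted p = 0.0515), as did leaving out 24 h replicate 1, which gave a log2 fold change of 1.21 (adjusted p = 0.0581).

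Ammonium carriers changed in opposite directions. Ammonium transporter 1-2-like (CsaV3_2G010040, chromosome 2, 6708360 to 6711134), which takes ammonium into cells, was at 107, 96.1 and 104 FPKM at 0 h and 3.82, 2.99 and 5.1 FPKM at 24 h (log2 fold change -4.60, SE 0.20, adjusted p = 2.74e-06). Its neighbour 1-2 (CsaV3_2G010060) was at 34, 31.9 and 33.9 FPKM at 0 h and 3.51, 4.31 and 8.6 FPKM at 24 h. Ammonium transporter 3-3-like (CsaV3_6G047560, chromosome 6, 28054966 to 28056570) was at 2.13, 1.68 and 1.83 FPKM at 0 h and 302, 154 and 26.2 FPKM at 24 h (log2 fold change 6.51, SE 0.91, adjusted p = 0.000576). Each 24 h library was above every 0 h library, but the 24 h libraries spanned more than 10-fold, and without 24 h replicate 1 the log2 fold change was 5.67. Over the whole list of nitrogen uptake and assimilation, 10 of 30 rose and 11 fell, and under DESeq2 rises became the more frequent. Without any of the 3 libraries of 0 h the number that rose was 5.

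Membrane lipid genes changed by member. Of 11 fatty acid desaturases, which put double bonds into lipids and keep membranes fluid, 4 rose and 4 fell. The plastid delta-7 desaturase of monogalactosyldiacylglycerol (CsaV3_4G001630, chromosome 4, 921985 to 924702), the main plastid galactolipid, was at 263, 283 and 254 FPKM at 0 h and 33.9, 29.3 and 32.7 FPKM at 24 h (log2 fold change -2.97, SE 0.10, adjusted p = 8.85e-07). Plastid desaturase 4 (CsaV3_3G005230, overlapping an opposite-strand gene) fell from 134, 138 and 142 to 12.4, 18 and 24.3 FPKM. The omega-3 desaturase of the endoplasmic reticulum (CsaV3_1G036250) rose from 37.9, 34.7 and 36.2 to 81.8, 63.5 and 56.5 FPKM, after a 12 h mean of 104 ± 1.45 FPKM. The sphingolipid desaturases delta-8 (CsaV3_6G000930) and delta-4 (CsaV3_1G012180), which act on lipids outside the plastid, rose from 12.4, 12.4 and 12.7 to 84.7, 97.7 and 148 FPKM and from 1.73, 0.953 and 0.891 to 5.1, 8.97 and 15 FPKM. The phospholipase and galactolipid list had 23 of 50 genes up and 11 down (median 0.27). Digalactosyldiacylglycerol synthase 1 (CsaV3_6G041120), of plastid galactolipid synthesis, went against that majority and fell from 47.8, 53.6 and 50.1 to 8.3, 6.27 and 8.46 FPKM. Fatty acid synthesis genes had 8 of 20 down and 5 up, an order that 1 alternative setting reversed. A palmitoyl thioesterase of the plastid (CsaV3_1G030920), which releases fatty acids for export, rose from 7.4, 8.96 and 7.11 to 61.8, 68.9 and 66.2 FPKM. The plastid omega-6 desaturase (CsaV3_1G028900) was not called, at 148, 150 and 146 FPKM at 0 h and 170, 143 and 130 FPKM at 24 h.

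The waxy surface layer had 27 of 54 genes down and 10 up (median -0.66). The wax-chain enzyme 3-ketoacyl-CoA synthase 6 (CsaV3_5G034300, chromosome 5, 27309080 to 27311410) was at 148, 196 and 127 FPKM at 0 h and 9.85, 7.01 and 11 FPKM at 24 h (log2 fold change -3.99, SE 0.24, adjusted p = 9.93e-06). Cytochrome P450s 77A3-like (CsaV3_6G004090) and 86A7 (CsaV3_5G002710), of subfamilies that make cutin in Arabidopsis, both fell. The former was at 89.2, 129 and 87.5 FPKM at 0 h and 6.99, 3.03 and 5.02 FPKM at 24 h and the latter at 17.4, 25.1 and 17.8 FPKM at 0 h and 0.967, 0.236 and 0.345 FPKM at 24 h. Without 24 h replicate 1 the log2 fold change of 86A7 was -6.01 in place of -5.17. Lipid-transfer protein 1 (CsaV3_3G033150), a surface protein of epidermal cells, was at 5160, 6400 and 4730 FPKM at 0 h and 2960, 1830 and 1920 FPKM at 24 h. The surface layer is made by epidermal cells. Of the epidermis markers 4 of 10 fell and 1 rose, with a summed level of 108 to 113 FPKM at 0 h and 93.2 to 101 FPKM at 24 h. Their part in the wax result was not tested.

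Of 10 guard cell markers 7 fell and 2 rose (median -1.37). The anion channel SLAC1 (CsaV3_3G003380, overlapping an opposite-strand gene), which closes stomata, was at 6.61, 7.7 and 6.42 FPKM at 0 h and 0.479, 0.726 and 0.582 FPKM at 24 h (log2 fold change -3.44, SE 0.21, adjusted p = 9.38e-06). FAMA (CsaV3_3G011010), which sets guard cell identity, was at 16.7, 15.1 and 11.9 FPKM at 0 h and 7.03, 5.66 and 6.3 FPKM at 24 h. The list's sum was 63.7 to 72.3 FPKM at 0 h and 55.0 to 70.8 FPKM at 24 h, ranges that overlap. EPIDERMAL PATTERNING FACTOR-like 6 (CsaV3_1G036650), of a family of stomatal peptides, rose from 0.32, 0 and 0.0527 to 11.4, 11.5 and 6.87 FPKM. Without 0 h replicate 1 the log2 fold change of that gene was 8.36 in place of 6.41. Phloem markers had 3 of 6 up and 2 down, with a sum of 59.9 to 61.0 FPKM at 0 h and 168 to 182 FPKM at 24 h. The member with the highest 24 h level was PHLOEM PROTEIN 2-LIKE A9 (CsaV3_1G046600), at 1.4, 1.74 and 1.55 FPKM at 0 h and 83.3, 87.4 and 95.9 FPKM at 24 h, whereas the members A1 (CsaV3_1G046420) and A10 (CsaV3_4G035220) fell, by 0.35 and 0.51 on the log2 scale. The call of A1 ended when any library other than 24 h replicate 3 was left out (adjusted p from 0.0611 to 0.149). Xylem markers had 3 of 5 down and 1 up, with sums of 25.5 to 36.6 FPKM at 0 h and 13.2 to 21.0 FPKM at 24 h. The part of these cell types in the other results was not tested.

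Most MAP kinase cascade genes, which relay stress signals by phosphorylation, rose. Of 32 MAP kinase cascade genes 19 rose and 8 fell (median 0.67), and from 12 h to 24 h 19 rose and 2 fell, beside 24.6% and 27.9% of all genes in that step. MAP kinase 3-like (CsaV3_1G033530, chromosome 1, 20622744 to 20626161), of the kinases that respond to stress and chitin, was at 37.3, 43.1 and 38.5 FPKM at 0 h and 978, 935 and 857 FPKM at 24 h (log2 fold change 4.63, SE 0.11, adjusted p = 5.33e-07). The kinase kinase kinase 3-like gene CsaV3_6G043320 was at 0.707, 0.762 and 0.733 FPKM at 0 h and 60.6, 52.6 and 45.8 FPKM at 24 h (6.25, SE 0.16). In each of these the 24 h libraries were close together. MAP kinase 19 (CsaV3_4G007970) fell from 476, 462 and 461 to 90.8, 83.5 and 69.9 FPKM and had reached a mean of 76.4 ± 2.79 FPKM at 12 h. Of 141 calcium sensors and channels 68 rose and 37 fell, with the calmodulin-like protein CML44 (CsaV3_6G034010) going from 3.04, 6.51 and 3.19 to 230, 237 and 315 FPKM.

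Respiratory burst oxidase C (CsaV3_3G043480), which makes superoxide at the cell surface, was at 2.77, 7.51 and 5.23 FPKM at 0 h and 122, 120 and 127 FPKM at 24 h (log2 fold change 4.66, SE 0.36, adjusted p = 3.42e-05). Alternative oxidase 2 (CsaV3_4G009450), which lets mitochondria respire with less ATP, and mitochondrial uncoupling protein 5 (CsaV3_6G045100) rose from 57.3, 59.6 and 58.5 to 206, 256 and 282 FPKM and from 44.2, 53.2 and 40.6 to 450, 518 and 604 FPKM. Of 29 scavengers of reactive oxygen 5 rose and 11 fell, which includes the catalase above; with median-of-ratios scaling 8 rose and with DESeq2 9 rose. A type 3 metallothionein-like protein (CsaV3_3G006310), of a family that binds metals, was among the 10 most abundant genes of both groups, at 4730, 5120 and 4750 FPKM at 0 h and 4120, 4570 and 4570 FPKM at 24 h, and was not called. Chitinases and chitin receptors, of interest because chitosan fragments resemble chitin, had 7 of 19 up and 4 down. Endochitinase PR4-like (CsaV3_1G036780) was at 4.94, 8.7 and 7.45 FPKM at 0 h and 98.6, 75.6 and 49.6 FPKM at 24 h. Chitinase 1-like (CsaV3_6G047720) was at 0.464, 0.247 and 0.455 FPKM at 0 h and 19.9, 9.45 and 14.1 FPKM at 24 h, while an acidic endochitinase (CsaV3_5G000830) fell from 6.91, 3.89 and 5.91 to 1.14, 2.19 and 0.75 FPKM. Of 49 pathogenesis-related proteins 21 rose and 15 fell. Thaumatin-like protein 1b (CsaV3_2G029590), of a defence protein family, rose from 1.23, 0.968 and 1.09 to 13.3, 22.8 and 35.3 FPKM, and thaumatin-like protein 1 (CsaV3_3G000740) fell from 76.1, 78.5 and 102 to 4.2, 5.17 and 6.18 FPKM.

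Some stress genes lie side by side on a chromosome, and these windows were chosen after their values were seen. On chromosome 4, 15091032 to 15164631, 8 glutathione S-transferases lie together, of which 6 rose and 0 fell, with log2 fold changes of -0.66 to 7.15; the whole family had 15 of 31 up and 6 down. Glutathione S-transferases attach glutathione to reactive compounds. In that window CsaV3_4G025680 was at 1.03, 0.788 and 1.13 FPKM at 0 h and 112, 85.3 and 95.4 FPKM at 24 h and CsaV3_4G025750 at 0.867, 0.943 and 0.747 FPKM at 0 h and 100, 61 and 46.6 FPKM at 24 h. On chromosome 4, 13727744 to 13776721, 6 genes described as peroxidase 2 lie together, of which 4 were tested and 4 rose, with CsaV3_4G023630 at 39.9, 45.1 and 38.2 FPKM at 0 h and 566, 546 and 551 FPKM at 24 h (3.84, SE 0.10). The whole list of secreted peroxidases had 10 of 23 genes up and 10 down. Phenylpropanoid and lignin genes had 27 of 68 up and 27 down. On chromosome 6, 22800389 to 22834362, 7 phenylalanine ammonia-lyases, the entry enzymes of phenolic compounds, had 5 rises and 1 fall. Of these CsaV3_6G039690 was at 0.189, 4.41 and 1.6 FPKM at 0 h and 102, 111 and 144 FPKM at 24 h and CsaV3_6G039710 at 0.383, 4.28 and 1.93 FPKM at 0 h and 137, 121 and 127 FPKM at 24 h, with 0 h libraries that differed more than 10-fold. Without 0 h replicate 2 their log2 fold changes were 7.12 and 6.87 in place of 5.93 and 5.95. On chromosome 3, 9428438 to 9451809, 8 ACC oxidase homologs split, with 2 rises and 4 falls. There CsaV3_3G012270 was at 44, 29.6 and 31.2 FPKM at 0 h and 139, 121 and 164 FPKM at 24 h and CsaV3_3G012300 at 31.1, 34.5 and 30.4 FPKM at 0 h and 5.46, 3.56 and 4.49 FPKM at 24 h. Members of such families are alike in sequence, and how reads were shared between them is not given.

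Wall-loosening genes had both directions. Expansin-A8-like (CsaV3_5G010900), of the proteins that let walls stretch during growth, was at 241, 247 and 236 FPKM at 0 h and 20.6, 27.2 and 31.5 FPKM at 24 h (log2 fold change -3.11, SE 0.15, adjusted p = 3.77e-06), and expansin-A4 (CsaV3_6G016770) fell from 27, 33 and 28.5 to 1.47, 2.86 and 4.09 FPKM. A probable xyloglucan endotransglucosylase/hydrolase (CsaV3_1G031420), which cuts and rejoins wall chains, rose from 2.17, 7.04 and 7.42 to 67.6, 68.7 and 73.9 FPKM. Polygalacturonase At1g48100 (CsaV3_2G024660), which cuts pectin, fell from 39.6, 43 and 41.5 to 2.31, 2.21 and 1.79 FPKM. Cellulose synthase-like H1 (CsaV3_2G034700, overlapping an opposite-strand gene) rose from 24.1, 17.4 and 18.5 to 266, 428 and 368 FPKM. Wound-induced protein 1 (CsaV3_4G026930) showed a late fall: its 12 h mean of 56.5 ± 10.6 FPKM was close to the 0 h libraries, at 59.1, 58.3 and 81.4 FPKM, and the 24 h libraries were at 2.42, 1.01 and 2.59 FPKM.

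Several large rises began from nearly nothing. A mitochondrial import translocase subunit (CsaV3_UNG004050), which brings proteins into mitochondria, stood at 0 in the 3 unchilled libraries and at 14.3, 20.4 and 15.2 FPKM at 24 h. Thioredoxin M3 (CsaV3_7G008540), a plastid redox protein, was at 0.0396, 0 and 0.0609 FPKM at 0 h and 11.2, 17.4 and 18.3 FPKM at 24 h. Geraniol 8-hydroxylase-like (CsaV3_5G003460), a P450 of terpenoid synthesis by name, went the other way and was at 7.73, 8.78 and 6.81 FPKM at 0 h and 0.0922, 0.118 and 0.036 FPKM at 24 h (-6.34, SE 0.35). For the first of these, no fold change is given, since a level at 0 has no ratio, and for thioredoxin the 0 h fragments were too few.

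The 24 h libraries differed more among themselves than those of the other durations. The biological coefficient of variation, meant as the spread beyond counting error, was 23.6% among the 24 h libraries against 13.2% at 0 h, 12.5% at 3 h and 12.4% at 12 h. It was computed on the deposited counts, in which 1 fragment is worth about 3.72 units, so part of the counting error remains in it. A range of more than 1 on the log2(FPKM + 1) scale was found for 916 genes at 24 h and 178 genes at 0 h. Of the 916, 569 were highest in 24 h replicate 1 and 580 were lowest in 24 h replicate 3. Cation/H+ antiporter 15-like (CsaV3_1G004730) was at 0.0724, 0.216 and 0.0687 FPKM at 0 h and 63.3, 14 and 2.24 FPKM at 24 h (log2 fold change 7.87, SE 1.42, adjusted p = 0.002). This was 6.15 without 24 h replicate 1 and 8.56 without 0 h replicate 2, and under quantile scaling it was 6.90 and not called (adjusted p = 0.1). MAP kinase kinase kinase NPK1 (CsaV3_1G036340) was at 3.94, 3.78 and 3.46 FPKM at 0 h and 142, 100 and 24.8 FPKM at 24 h. Stem-specific protein TSJT1 (CsaV3_6G050010) was at 3.94, 7.01 and 2.88 FPKM at 0 h and 125, 152 and 32.6 FPKM at 24 h. A lipid-transfer-like gene (CsaV3_3G013110) was at 1.23, 1.7 and 1.39 FPKM at 0 h and 50.2, 16 and 4.83 FPKM at 24 h, with a log2 fold change of 4.13 that was 2.93 without 24 h replicate 1. In these 4 genes library 3 was the lowest at 24 h. ERF098-like (CsaV3_2G012880), with no count at 0 h, was at 2.21, 3.15 and 27 FPKM and had library 3 highest. On the log2(FPKM + 5) scale limma did not call it (adjusted p = 0.0548).

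**Figure D5:**
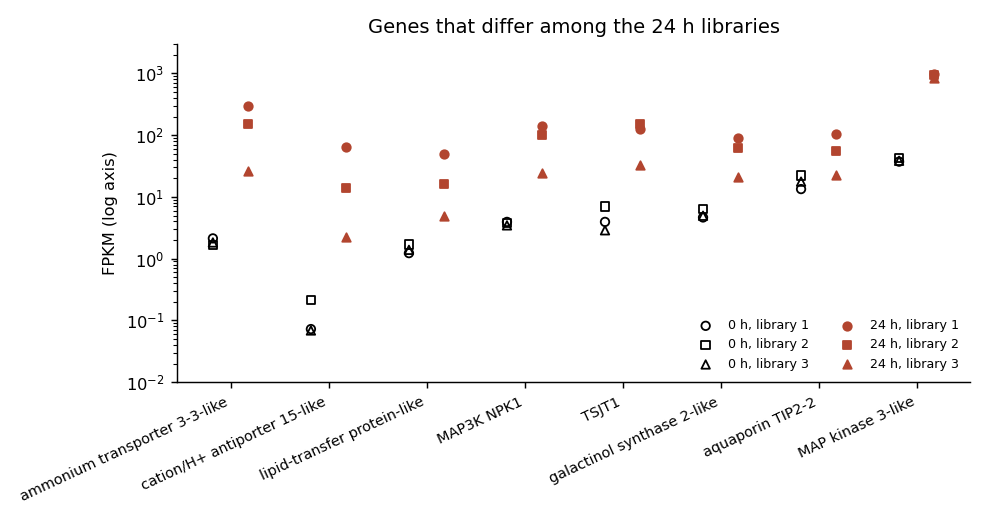
FPKM on a log axis in each library of 0 h (open black symbols) and 24 h (filled red symbols) for 8 genes; circles, squares and triangles are libraries 1, 2 and 3. For the first 7 genes the 24 h libraries lie far apart, as for ammonium transporter 3-3-like, and for MAP kinase 3-like, shown for comparison, they lie together at 857 to 978 FPKM.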

How the data were processed

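RNA from cucumber leaves was sequenced in 12 libraries, 3 for each of 4 durations of cold, and 6 of them, those of 0 h and 24 h, are compared here. Per the submitters' processing notes, reads were trimmed with cutadapt 1.9 and inspected with FastQC; the series' design text names HISAT2 as the aligner. The sources used here name neither the counting program nor its strand setting nor the genome build, and positions are those of the deposited table. The authors deposited FPKM values and estimated counts per gene in whole numbers. The lowest deposited counts lie near multiples of 3.72, so that 1 fragment is worth about 3.72 units and totals correspond to about 18.2 to 21.9 M fragments. Intervals and p-values from such counts cover the spread between libraries and no further source of error. An FPKM of 0.0001 stands in the file wherever the count is 0 (61048 values) and was read as 0.

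The 15843 of 24317 genes that reached 1 FPKM in 3 or more of the 6 libraries were tested with edgeR 4.0.16 (R 4.3.3), TMM scaling and the robust quasi-likelihood test on the 6 libraries without a replicate block, with Benjamini-Hochberg adjustment over all tested genes. The step from 12 h to 24 h came from 1 fit of all 12 libraries. TMM factors were 1.012 to 1.029 at 0 h and 0.966 to 0.991 at 24 h, so fold changes differ a little from ratios of FPKM. Alternatives used DESeq2 1.42.0 and limma 3.58.1; figures used matplotlib 3.10.9. Gene names are the descriptions in the deposited table, and of the tested genes 2234 overlap another gene, which is said beside each named one.

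The comparison, the gene lists and the rule for named genes were chosen with earlier results of these data known. The rule took the 10 largest rises and falls among genes with an informative description, and up to 3 of the largest changes each way in every list. Both took only called genes whose higher group averaged 5 FPKM or more and whose groups did not overlap. It also took every tested member of lists of at most 12 and the 10 most abundant genes of each group. The 10 most variable genes at 24 h and the 5 largest rises and falls after 12 h completed it. Lists are described by counts and medians, with no test of a list.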

Additional observations from a re-analysis of the deposited data

How the results depend on the processing

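Scaling, filters and tools moved the counts little. The number of genes changed between 0 h and 24 h was 10994 with median-of-ratios scaling, 11013 with library totals, 11133 with quantile scaling, 11323 with DESeq2, 11229 with limma on log2(FPKM + 1), 11676 with no filter and 8211 with a mean of at least 5 FPKM, which left 11167 genes to test. It was 5837 when a change of at least 2-fold was also asked for, and 9736 to 11322 when a library was left out. Quantile scaling moved the median log2 fold change of all genes to -0.11 and the share of calls that were rises from 50.3% to 44.6%. Same-numbered libraries did not deviate together (correlations of -0.082 to -0.032). Whether the numbers pair libraries by plant or batch cannot be told from this. With a replicate block 10381 genes were called, CP47 not among them (adjusted p = 0.0827), and 8152 in the step from 12 h to 24 h. That step had 8324 calls, 6914 from a fit of 12 h and 24 h only, and 7159 to 8907 with a library left out.

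Alternatives were run for 180 of the named genes, and 170 of these kept their call and direction under every alternative run. The type 3 metallothionein (CsaV3_3G006310 log2 fold change, 24 h minus 0 h), not called at -0.05, was called upward under quantile scaling at 0.22 (adjusted p = 0.0401). The plastid omega-6 desaturase (CsaV3_1G028900 log2 fold change, 24 h minus 0 h), not called at 0.08, was -0.10 under quantile scaling, -0.02 with limma at each of the 3 pseudocounts and -0.04 to 0.17 with a library left out. The RuBisCO small chain (CsaV3_5G034360 log2 fold change, 24 h minus 0 h), not called at -0.22, was called with library totals at -0.28, in the fit of all 12 libraries at -0.25, and with limma on log2(FPKM + 5) and without 24 h replicate 1 at -0.31. The median log2 fold changes of heat stress factors, CBF/DREB factors, HSP70 and HSP90 genes and guard cell markers came nearest to 0 on the log2(FPKM + 5) scale, at 0.87, 1.57, 1.08 and -0.57. That of ZAT zinc fingers did so with no filter, at 1.0. Genes near 1 FPKM rest on few fragments, and their fold changes are the least certain.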
